A study of Mus musculus with 3 samples.

Results

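The 8 genes described here encode regulators of the exchange of histones for protamines in mouse sperm formation: Brdt, Chd5, Rnf8, Phf7, Kat8, Epc1, Psme4 and Psma8. They were taken by symbol from the gene lists of the deposited matrices, and all 8 were found among 32285 genes. Their UMI counts were followed through germ cell development in single cells of the testis of adult mice of the strain C57BL/6N. There were 3 libraries of 10x Genomics Chromium 3′ chemistry, which reads the 3′ end of each messenger RNA and counts each captured molecule once by its unique molecular identifier (UMI). The 2 wildtype libraries, replicate 1 and replicate 2, each came from 1 mouse. The third library, labelled as a conditional knockout of Tex10, pooled cells of 2 mice, and neither the line that drives Cre nor the exons it removes are stated in the labels. With 1 such library no test between the genotypes was possible, and stage differences within the testis were tested over the 3 libraries.

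In elongating spermatids most histones are taken off the DNA and replaced, first by transition proteins and then by protamines. Several steps open the nucleosomes for this exchange. Histone H4 is hyperacetylated by acetyltransferase complexes, histones H2A and H2B are ubiquitinated by E3 ligases, acetylated histones are bound by bromodomain proteins, and testis proteasomes degrade the released histones. BRDT is the testis member of the BET family of double bromodomain proteins and binds acetylated H4. CHD5 is a chromodomain ATPase that remodels nucleosomes. RNF8 and PHF7 are E3 ubiquitin ligases, of which PHF7 acts on H2A in spermatids. KAT8 (MOF) acetylates H4 lysine 16, and EPC1 is a scaffold of the NuA4 acetyltransferase complex. PSME4 (PA200) is a proteasome activator that recognises acetylated histones. PSMA8 is a testis-specific α subunit of the proteasome core that takes the place of PSMA7.

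The libraries held 93418341, 96001773 and 147783171 UMIs in 9967, 10153 and 12918 barcodes (wildtype replicate 1, wildtype replicate 2 and the library labelled knockout, the order of all triplets of values below). After filtering, 3052, 4204 and 3550 germ cells fell into 12 clusters, which formed 12 steps from spermatogonia (step 1) over early spermatocytes (steps 2 and 3) and late spermatocytes (steps 4 to 6) to round (steps 7 and 8) and elongating spermatids (steps 9 to 12). The members took no part in forming or ordering the clusters. Step 2 was marked by Stra8, step 3 by Sycp1 and Meiob, step 4 by Piwil1, step 5 by Pou5f2, step 6 by Ccna1 together with the first acrosome transcripts, and steps 9 to 12 by Prm1 and Prm2. The class of step 6 is uncertain: the correlation of its profile was 0.770 with step 5 and 0.926 with step 7. Piwil1 and Pou5f2 were low at step 6, while Aurka was as high as at step 5. Barcodes of clusters with few UMIs were kept out of all classes and made up 57.2%, 43.0% and 65.7% of the kept barcodes. Libraries shared 27 to 30 barcode sequences in each pair. The library labelled knockout was deeper per cell, with a median of 17925 UMIs in elongating spermatids against 12021 and 9534. Tex10 itself stood at 143, 123 and 131 UMIs per 1e+06 UMIs of the class (CPM) in spermatogonia and at 22.6, 23.8 and 16.5 CPM in round spermatids. The 3′ end of a transcript does not check a deletion elsewhere in the gene, so the genotype could not be verified from these counts.

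RefSeq promoters were listed for 6 of the 8 members. The 250 bases before the transcription start are given for the 4 of these whose transcript level changed most between germ cell classes, because their steep stage profiles are what the results turn on (GRCm38.p6, 5′ to 3′ on the strand of the gene). Capitals mark matches on either strand to the CRE half-site TGACGT, the X-box (GTTNCC and GNAAC with 3 bases between them), the CCAAT box or the E-box CACGTG. The motifs were chosen after the sequences had been seen.
Brdt (chr5:107330944-107331193, plus strand): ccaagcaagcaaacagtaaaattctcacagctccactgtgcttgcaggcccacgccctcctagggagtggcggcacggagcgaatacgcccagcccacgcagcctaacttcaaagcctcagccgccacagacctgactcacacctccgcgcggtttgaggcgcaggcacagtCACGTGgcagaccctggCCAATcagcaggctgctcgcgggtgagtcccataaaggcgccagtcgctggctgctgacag
Chd5 (chr4:152338401-152338650, plus strand): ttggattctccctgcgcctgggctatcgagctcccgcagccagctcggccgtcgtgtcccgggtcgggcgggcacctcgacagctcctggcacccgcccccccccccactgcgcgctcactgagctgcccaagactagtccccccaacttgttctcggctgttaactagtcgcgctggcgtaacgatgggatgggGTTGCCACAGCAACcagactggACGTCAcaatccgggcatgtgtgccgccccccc
Rnf8 (chr17:29614539-29614788, plus strand): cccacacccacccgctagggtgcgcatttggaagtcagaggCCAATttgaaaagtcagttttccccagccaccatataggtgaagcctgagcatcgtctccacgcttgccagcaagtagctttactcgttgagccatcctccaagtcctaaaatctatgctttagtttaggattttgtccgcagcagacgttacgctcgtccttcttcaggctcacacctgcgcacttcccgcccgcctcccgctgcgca
Phf7 (chr14:31251316-31251565, minus strand): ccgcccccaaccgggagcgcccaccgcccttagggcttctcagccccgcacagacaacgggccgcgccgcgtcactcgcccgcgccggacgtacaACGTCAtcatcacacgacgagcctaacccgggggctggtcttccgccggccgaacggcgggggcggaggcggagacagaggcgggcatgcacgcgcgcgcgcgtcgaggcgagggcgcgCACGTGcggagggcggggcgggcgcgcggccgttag
The X-box, the motif that RFX factors bind, was found in the window of 1 of the 6 members, Chd5, with its first base 55 bases before the start. Of 27025 RefSeq promoters of the same length, 0.659% held it. Chd5 also held a CRE half-site, the core of the motif bound by CREM and CREB, 33 bases before the start. Phf7 and Kat8 held one too, and 6.56% of all promoters did. The E-box was found in Brdt and Phf7 and in 6.05% of all promoters, the CCAAT box in Brdt, Rnf8 and Kat8 and in 34.5%. Psme4 held none of these. The MYB site CNGTTG and the TATA box TATAAA, searched in the same way, were found in 2 and 0 of the 6 members and in 29.3% and 12.97% of all promoters. No 2 of the marked matches overlap. A match describes the letters and shows no binding.

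The 8 genes peaked at different points of development. Brdt and Psma8 were highest in early spermatocytes, Phf7, Kat8, Epc1 and Psme4 in late spermatocytes and Chd5 in round spermatids, in each of the 3 libraries. Rnf8 was highest in early spermatocytes in 2 libraries and in spermatogonia in wildtype replicate 2, and its values in these classes overlapped. The ratio of the highest to the lowest class was 145 ± 31.1 (SD, n = 3 libraries) for Rnf8, 61.9 ± 6.83 for Psma8, 20.5 ± 2.07 for Brdt and 10.4 ± 1.45 for Chd5. It was 9.67 ± 1.09 for Phf7, 7.10 ± 0.393 for Epc1, 3.40 ± 0.142 for Kat8 and 2.05 ± 0.156 for Psme4. These UMI levels are not scaled by transcript length and are compared between stages of a gene, not between genes. A CPM level also falls when other transcripts take a larger part of the RNA. Fewer molecules per cell and such dilution cannot be told apart in a class of cells.

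**Figure D1:**
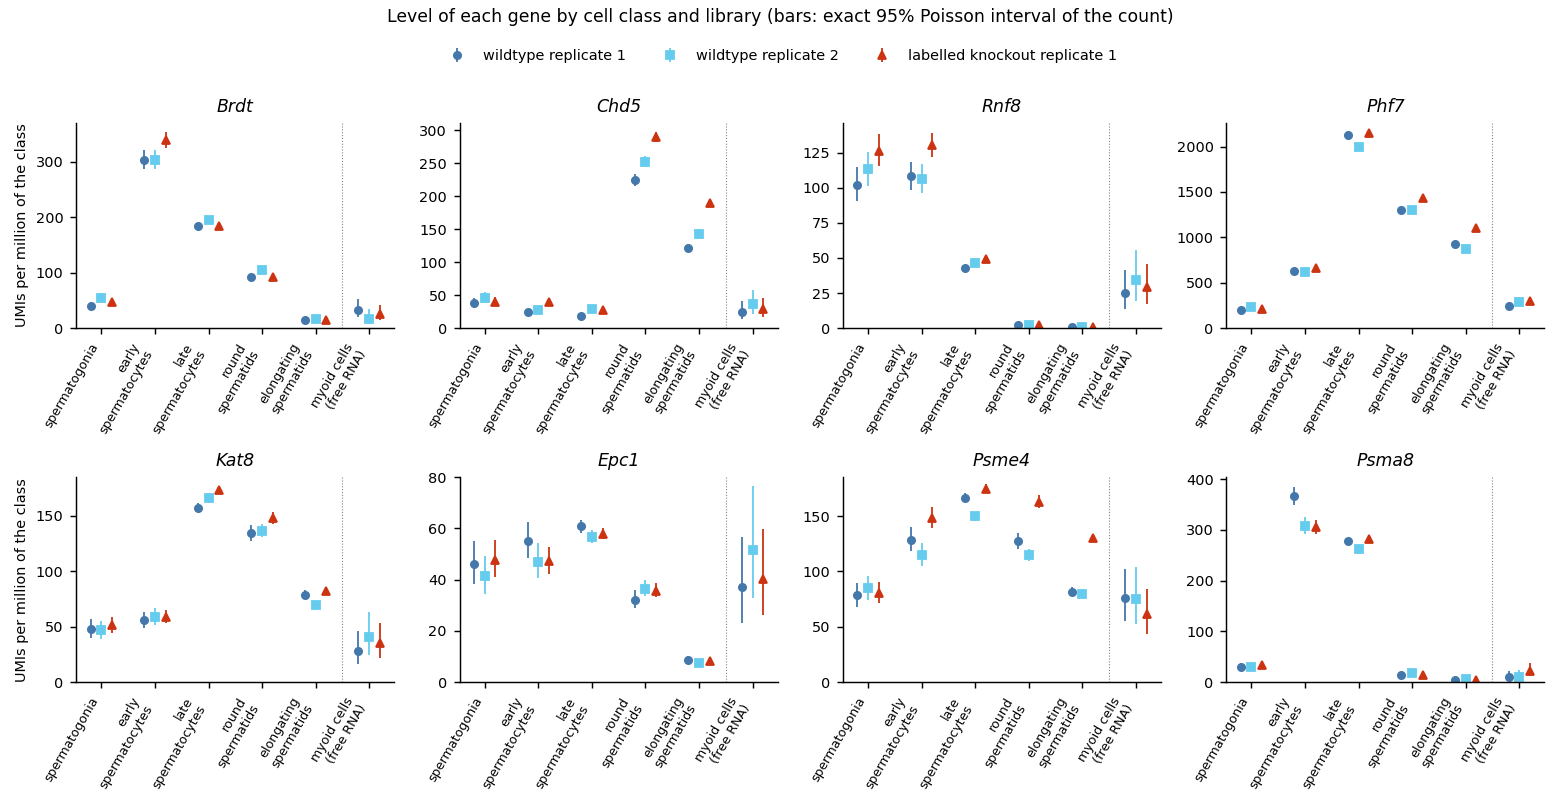
CPM of the class (vertical axis, from 0) for each of the 8 genes in 5 germ cell classes and in peritubular myoid cells (horizontal axis). Points are the 3 libraries, bars are exact 95% Poisson intervals of the count; Chd5 stands out in round spermatids at 225, 252 and 289 CPM, while Rnf8 and Psma8 are near 0 in elongating spermatids.

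Transcripts of protamines and transition proteins took a large part of the RNA of elongating spermatids. Those of Prm1, Prm2, Tnp1 and Tnp2, 4 genes summed after their levels had been seen, made up 26.3%, 26.7% and 24.8% of all UMIs of this class, against 3.61%, 2.40% and 3.51% in round spermatids. Stage differences were therefore tested with edgeR's quasi-likelihood test with TMM scaling, which centres on the bulk of the genes, and given again on the scale of library totals. The median log2 change over the 18437 genes tested was 0.02 from round to elongating spermatids with TMM and -1.26 with library totals. It was 0.16 and 0.04 from spermatogonia to early spermatocytes, 0.12 and -0.45 from early to late spermatocytes, and -0.16 and -0.55 from late spermatocytes to round spermatids. A change given below is the TMM value unless library totals are named, and it is relative to the bulk of the genes of the class.

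From spermatogonia to early spermatocytes 5 of the 8 members rose and none fell by edgeR at an adjusted p under 0.05, where 30.8% of all genes rose and 27.8% fell. On the same test 6 rose and 2 fell into late spermatocytes (41.5% and 36.2% of all genes), 1 rose and 5 fell into round spermatids (38.7% and 42.7%), and 4 rose and 2 fell into elongating spermatids (32.1% and 33.7%). On library totals the counts were 5 higher and 1 lower, 4 and 4, 1 and 7, and 0 and 8 in the same order. The share of all genes called is not given on that scale, where the median of all genes was 0.04, -0.45, -0.55 and -1.26. The members' median log2 change was 0.59, 0.57, -0.30 and 0.27 over the 4 transitions, and 0.46, -0.01, -0.69 and -1.07 on library totals. Most genes change between classes this far apart, so these counts describe the members and set them apart from nothing. Counts of partner genes given below are to be read beside the same shares and in the same way.

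**Figure D2:**
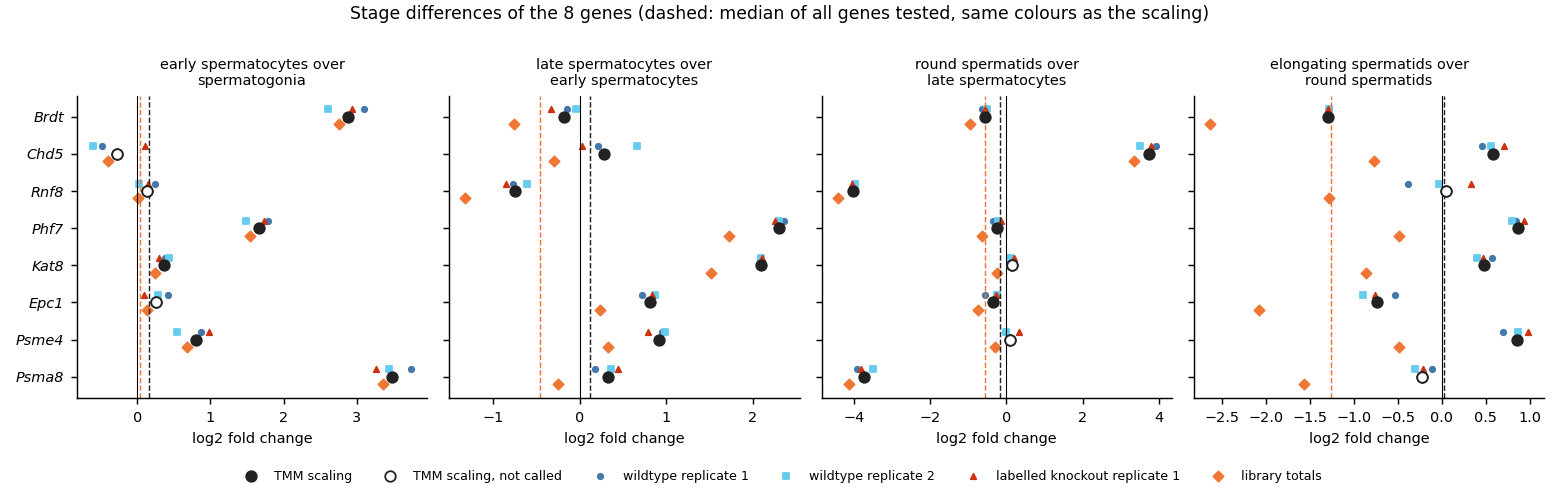
Log2 fold change of each gene between neighbouring germ cell classes (horizontal axis), with edgeR's TMM-scaled estimate in black (open where the adjusted p was 0.05 or more), each library's own value above it and the estimate on library totals in orange below it. Dashed lines are the medians over all genes tested; from round to elongating spermatids Chd5, Phf7, Kat8 and Psme4 lie above 0 with TMM and below 0 on library totals.

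Brdt, the bromodomain reader, was a transcript of spermatocytes. The gene (ENSMUSG00000029279) lies at 107331159 to 107387058 on the plus strand of chromosome 5 (GRCm38, GENCODE M21, as for the genes that follow). It stood at 39.4, 53.7 and 47.3 CPM in spermatogonia, at 304, 304 and 339 CPM in early spermatocytes and at 183, 194 and 184 CPM in late spermatocytes. It then fell to 92.8, 105 and 91.8 CPM in round spermatids and 14.99, 16.4 and 14.98 CPM in elongating spermatids. The elongating spermatids lay below the 33.5, 17.2 and 25.9 CPM of peritubular myoid cells. The 3 values of each germ cell class lay clear of those of every neighbour in the order of levels. By edgeR's quasi-likelihood test the log2 change was 2.88 into early spermatocytes (adjusted p = 1.58e-22), higher in 3 of 3 libraries. The fall into round spermatids was -0.57 (adjusted p = 7.80e-08) and that into elongating spermatids -1.29 (adjusted p = 5.04e-15), lower in 3 of 3 libraries each, and on library totals these were -0.96 and -2.64. From early to late spermatocytes the change was -0.18 with TMM (edgeR adjusted p = 0.0426) and -0.76 on library totals (adjusted p = 1.71e-10). The TMM call was lost without the library labelled knockout (adjusted p = 0.34) and without wildtype replicate 1 (adjusted p = 0.102). Within early spermatocytes the level rose from 73.5, 74.7 and 79.0 CPM at step 2 to its peak of 384, 398 and 422 CPM at step 3, the step marked by Sycp1 and Meiob. At step 4, the first of the late spermatocytes, it was 272, 281 and 276 CPM.

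Brd2 and Brd3, BET paralogs that many tissues express, had other courses. Brd3 stood at 181, 186 and 190.02 CPM in spermatogonia and at 61.4, 74.4 and 76.1 CPM in early spermatocytes. It fell into early spermatocytes by edgeR, with a log2 change of -1.27 (adjusted p = 1.97e-14), and rose again by 1.63 into late spermatocytes (adjusted p = 1.23e-18). Brd2 rose by 0.27 into early spermatocytes (adjusted p = 0.0047), and the value on library totals, 0.14, did not pass. Into round spermatids Brd2 and Brd3 fell, with log2 changes of -0.70 (edgeR adjusted p = 2.82e-10) and -0.40 (adjusted p = 1.45e-05).

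Chd5, the nucleosome remodeller, marked the spermatids. Chd5 (ENSMUSG00000005045) lies at 152338651 to 152390194 on the plus strand of chromosome 4. It stood at 37.9, 45.8 and 40.2 CPM in spermatogonia, 24.2, 27.8 and 40.3 CPM in early spermatocytes and 18.8, 29.1 and 28.2 CPM in late spermatocytes. These levels did not exceed the 24.7, 36.5 and 29.1 CPM in peritubular myoid cells, the muscle-like cells around the tubules, beyond the counting intervals. Myoid cells also held 3474, 3894 and 3403 CPM of Prm1, a transcript of spermatids. In them free RNA in the droplets and a gene's own transcripts cannot be told apart, and their level serves as a yardstick only. In round spermatids Chd5 reached 225, 252 and 289 CPM and in elongating spermatids 122, 142 and 189.9 CPM. All spermatid values lay above all values of earlier classes. The log2 change into round spermatids was 3.74 by edgeR (adjusted p = 5.07e-27), higher in 3 of 3 libraries. The later change into elongating spermatids was 0.58 (adjusted p = 5.83e-07) and -0.77 on library totals (adjusted p = 1.26e-08), so its direction depends on the scaling. Earlier changes were small and depend on the settings too. Into late spermatocytes the change was 0.28 (edgeR adjusted p = 0.0257), 0.11 (adjusted p = 0.419) without wildtype replicate 2, -0.30 (adjusted p = 0.023) on library totals and -0.20 (adjusted p = 0.158) by DESeq2, so no direction is given there. Into early spermatocytes it was -0.28 (edgeR adjusted p = 0.0720), and -0.55 (adjusted p = 0.00398) without the library labelled knockout.

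The steps located the rise. Chd5 was lowest at step 5, with 3.71, 4.02 and 4.88 CPM, below the myoid level. It then stood at 56.2, 78.4 and 104 CPM at step 6, the last step named late spermatocytes, whose class is uncertain. It peaked at step 8 in every library, at 244, 286 and 317 CPM, and went down to 31.6, 35.4 and 40.9 CPM at step 12. The ratio of the highest to the lowest step was 67.3 ± 3.28 (SD, n = 3 libraries).

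None of the 8 CHD paralogs was highest in spermatids: 5 were highest in early spermatocytes and 3 in spermatogonia by their mean level. Chd4, the ATPase of the NuRD complex, went from 160, 156 and 184 CPM in late spermatocytes to 37.1, 38.7 and 46.2 CPM in round spermatids, a log2 change of -1.64 (edgeR adjusted p = 2.00e-19). Chd3 fell by 1.76 (adjusted p = 2.42e-16) at this transition. Chd6 rose by 1.38 (adjusted p = 3.63e-10) from a level that had dropped by 4.25 between early and late spermatocytes. Of the 8 paralogs, 2 rose and 6 fell into round spermatids by edgeR (38.7% and 42.7% of all genes). Their median log2 change was -1.87.

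Rnf8, a ubiquitin ligase of the DNA damage response and of meiotic sex chromosomes, was a gene of spermatogonia and spermatocytes. Rnf8 (ENSMUSG00000090083) lies at 29614790 to 29644991 on the plus strand of chromosome 17. Its levels were 102, 113 and 126 CPM in spermatogonia and 108, 106 and 130.2 CPM in early spermatocytes, which overlapped, and 42.5, 46.0 and 49.4 CPM in late spermatocytes. Round spermatids held 2.04, 2.23 and 2.19 CPM and elongating spermatids 0.604, 0.823 and 1.10 CPM, all below the 24.7, 34.3 and 29.1 CPM of myoid cells. By edgeR the log2 change was -0.74 into late spermatocytes (adjusted p = 4.62e-09) and -4.03 into round spermatids (adjusted p = 1.16e-24), lower in 3 of 3 libraries each, and on library totals -1.32 and -4.43. The drop fell between steps 4 and 6. The levels were 99.2, 103 and 109 CPM at step 4, 40.2, 43.9 and 40.7 CPM at step 5 and 4.92, 5.60 and 6.63 CPM at step 6, whose class is uncertain. Rnf8 RNA was thus near its lowest level in the steps in which Chd5 rose. The annotated genes Gm28052 and Gm28043 overlap the 3′ end of Rnf8 on the same strand, and 34.6% of the 31-base words of its transcript ends also occur in other genes, so its counts are uncertain in level.

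H2afx and Mdc1, partners of Rnf8 in damage signalling, also fell into round spermatids. H2afx, which encodes the histone variant H2AX, and Mdc1, the adaptor that binds its phosphorylated form, rose into early spermatocytes by 2.55 and 2.87 on the log2 scale (edgeR adjusted p = 6.70e-21 and 3.74e-21). Into round spermatids they fell, with log2 changes of -3.40 and -4.09 (adjusted p = 4.28e-25 and 1.09e-25). Ube2n, a ubiquitin-conjugating enzyme that works with RNF8, did the opposite and rose by 2.52 into round and 2.66 into elongating spermatids (adjusted p = 6.30e-26 and 8.59e-26). Of the 8 partners 4 rose and 4 fell into round spermatids (38.7% and 42.7% of all genes), with a median of -0.07.

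Phf7, the H2A ligase, peaked in late spermatocytes and stayed high until late in the spermatids. Phf7 (ENSMUSG00000021902) lies at 31237689 to 31251317 on the minus strand of chromosome 14. It rose from 203, 236 and 214 CPM in spermatogonia to 624, 614 and 659.5 CPM in early and 2132, 1995 and 2149 CPM in late spermatocytes. Round spermatids still held 1306, 1300.2 and 1431 CPM and elongating spermatids 923, 869 and 1105 CPM. No class overlapped its neighbour in the order of levels. The log2 change was 1.66 into early (edgeR adjusted p = 9.05e-19) and 2.31 into late spermatocytes (adjusted p = 3.90e-24), higher in 3 of 3 libraries and on library totals. It was -0.25 into round spermatids (adjusted p = 0.00251), -0.64 on library totals, -0.09 (adjusted p = 0.326) with thinned cells and 0.00749 (adjusted p = 0.921) by DESeq2. Into elongating spermatids it was 0.86 (adjusted p = 9.70e-13) with TMM and -0.48 on library totals (adjusted p = 6.66e-08). Spermatogonia did not exceed the 240.0, 292 and 299 CPM of myoid cells.

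Phf7 ended abruptly. Its level was 1538, 1451 and 1803 CPM at step 10, above that of step 9 in each library, and 185, 196 and 283 CPM at step 11. Kat8 dropped between steps 9 and 10, and Chd5 went down at each step from 8 to 12, whereas Prm1 rose from step 9 to step 11 in each library.

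**Figure D3:**
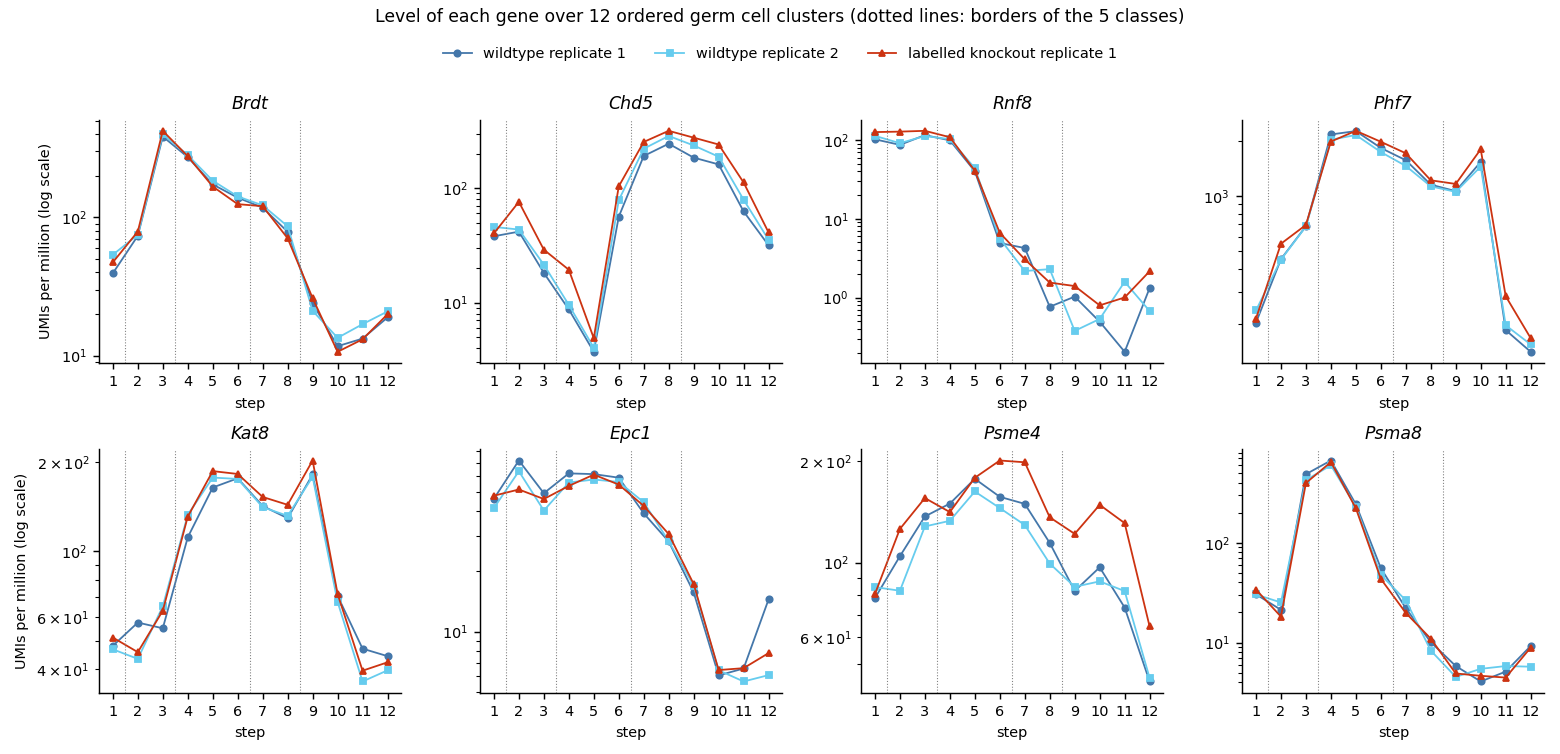
CPM (vertical axis, log scale) of each gene over the 12 ordered germ cell clusters (horizontal axis), 1 line for each library. Brdt peaks at step 3, Psma8 at step 4, Phf7 at step 5 and Chd5 at step 8 in all 3 libraries, Kat8 is high from step 5 to 9, and Rnf8 drops between steps 4 and 6.

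Kat8, the H4 lysine 16 acetyltransferase, rose with meiosis. Kat8 (ENSMUSG00000030801) lies at 127912516 to 127925837 on the plus strand of chromosome 7. Its levels were 48.1, 46.8 and 51.3 CPM in spermatogonia, 55.7, 59.0 and 58.9 CPM in early spermatocytes and 157, 166 and 173 CPM in late spermatocytes. They were 134, 137 and 148 CPM in round and 79.0, 69.3 and 82.3 CPM in elongating spermatids. No class overlapped its neighbour in the order of levels. The log2 change into late spermatocytes was 2.10 by edgeR (adjusted p = 4.48e-22), higher in 3 of 3 libraries and on library totals. That into round spermatids, 0.15 (adjusted p = 0.0617), did not pass and was -0.25 on library totals. Into elongating spermatids it was 0.48 with TMM (adjusted p = 5.07e-07) and -0.86 on library totals. By steps Kat8 stood at 164, 178 and 187 CPM at step 5, 177, 176 and 183 CPM at step 6, 129, 132 and 144 CPM at step 8 and 182, 179 and 203 CPM at step 9, the first step of the elongating spermatids. In both wildtype libraries the counting intervals of steps 6 and 9 overlapped. At step 10 the level was 70.9, 67.6 and 71.9 CPM. The gene Prss8 overlaps the 3′ end of Kat8 on the opposite strand, and whether counting used the strand is not stated in the sources used here.

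Subunits of MSL and NSL, the complexes that KAT8 works in, went both ways. Into late spermatocytes 4 of the 10 rose and 6 fell by edgeR (41.5% and 36.2% of all genes). Their median log2 change was -0.81. Msl1, a core subunit of the MSL complex, rose by 0.91 (adjusted p = 1.58e-11) and on into round spermatids by 0.83 (adjusted p = 1.48e-11). Phf20, a reader subunit of the NSL complex, fell by 1.75 into late spermatocytes (adjusted p = 1.68e-19). Mcrs1 changed by 0.27 (adjusted p = 0.00303), and by -0.31 on library totals.

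Epc1, the NuA4 scaffold, was close to level in CPM until the spermatids. With TMM it rose into late spermatocytes, though not in thinned cells. Epc1 (ENSMUSG00000024240) lies at 6435951 to 6516108 on the minus strand of chromosome 18. Its levels were 46.2, 41.5 and 47.8 CPM in spermatogonia, 55.0, 47.1 and 47.3 CPM in early and 60.8, 56.7 and 57.9 CPM in late spermatocytes, with overlap of the first pair. They were 32.2, 36.6 and 35.8 CPM in round and 8.79, 7.50 and 8.47 CPM in elongating spermatids. Myoid cells held 37.1, 51.5 and 40.4 CPM, and Epc1 is widely expressed. The log2 change was 0.81 into late spermatocytes (edgeR adjusted p = 3.54e-09), -0.35 into round (adjusted p = 0.000935) and -0.74 into elongating spermatids (adjusted p = 1.40e-07), each with the same sign in 3 of 3 libraries. On library totals the values were 0.24, -0.74 and -2.08. With each cell thinned to 2000 UMIs none of these Epc1 changes passed by edgeR, at -0.16 (adjusted p = 0.365), -0.37 (adjusted p = 0.0845) and -0.52 (adjusted p = 0.0732). The change into round spermatids did not pass by DESeq2 either, at -0.09 (adjusted p = 0.326).

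NuA4 partners of Epc1 changed as follows. Into late spermatocytes 11 of the 15 rose and 4 fell by edgeR (6 and 5 on library totals). Of all genes 41.5% rose and 36.2% fell there by edgeR with TMM. Into round spermatids 1 rose and 12 fell (38.7% and 42.7% of all genes), with a median of -0.999. Into elongating spermatids 1 rose and 12 fell (32.1% and 33.7%), with a median of -1.25. Morf4l1, a chromodomain subunit, rose by 1.69 into late spermatocytes (adjusted p = 2.87e-21) and Ruvbl2, an ATPase subunit, by 1.60 (adjusted p = 2.80e-18). Mbtd1, which reads methylated histones, rose one stage earlier, by 1.79 into early spermatocytes (adjusted p = 2.48e-17).

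Psme4, the PA200 activator, had the narrowest range of the 8. Psme4 (ENSMUSG00000040850) lies at 30771726 to 30880361 on the plus strand of chromosome 11. It stood at 78.5, 84.6 and 80.7 CPM in spermatogonia, 129, 115 and 148 CPM in early and 166, 150.0 and 175 CPM in late spermatocytes. Round spermatids held 127, 115 and 163 CPM and elongating spermatids 81.7, 79.9 and 130.02 CPM. Myoid cells held 75.9, 75.1 and 61.4 CPM, near the wildtype levels in spermatogonia and elongating spermatids. Every germ cell class overlapped its neighbour in the order of levels. The changes into early and late spermatocytes were nevertheless found in each library, at 0.81 (edgeR adjusted p = 4.96e-07) and 0.91 (adjusted p = 1.77e-09), and on library totals at 0.68 and 0.33. When each cell was thinned to 2000 UMIs, which weights the steps by their cells rather than their RNA, the second of these was 0.08 (adjusted p = 0.523). The change into elongating spermatids was 0.86 (adjusted p = 3.87e-09) with TMM and -0.48 on library totals.

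The other proteasome activators changed more. Psme1 and Psme2, the subunits of the PA28αβ cap, fell into early spermatocytes, with log2 changes of -3.40 and -3.46 (edgeR adjusted p = 5.48e-21 and 3.79e-18), and into late spermatocytes, with -2.69 and -2.66 (adjusted p = 7.34e-16 and 5.23e-13). Psme3, the PA28γ subunit, was at 84.1, 75.1 and 83.6 CPM in spermatogonia, at 16.2, 17.6 and 19.1 CPM in late spermatocytes and at 47.2, 48.8 and 55.0 CPM in elongating spermatids. It rose by 1.56 into round (adjusted p = 4.47e-16) and by 1.69 into elongating spermatids (adjusted p = 6.45e-17), and by 1.17 and 0.34 on library totals. Psmf1, which encodes the inhibitor PI31, rose by 2.52 and 2.32 at the same transitions (adjusted p = 3.91e-25 and 1.11e-23).

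Among the UMIs of the 4 activator genes, the Psme4 part grew through meiosis. It went from 18.4%, 20.8% and 17.8% in spermatogonia over 62.1%, 61.9% and 64.5% in early to 90.3%, 88.3% and 88.7% in late spermatocytes, a difference of 70.1 ± 2.32 percentage points (SD, n = 3 libraries). By steps it reached 93.8 ± 1.56% at step 7, came down to 44.0 ± 3.51% at step 9, where Psme3 held 55.4 ± 3.45%, and returned to 90.6 ± 2.01% at step 12. By library the Psme4 part at step 9 was 42.7%, 41.3% and 47.9%. These parts follow the genes over the steps and do not rank their transcript levels.

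Psma8, the testis α subunit, was a transcript of spermatocytes. Psma8 (ENSMUSG00000036743) lies at 14706151 to 14762301 on the plus strand of chromosome 18. It stood at 30.4, 30.3 and 33.9 CPM in spermatogonia, 367, 308 and 305 CPM in early and 277, 262 and 282 CPM in late spermatocytes. It was down to 14.4, 17.6 and 14.7 CPM in round and 5.27, 5.47 and 5.10 CPM in elongating spermatids, which did not exceed the 10.6, 10.7 and 22.6 CPM of myoid cells beyond the counting intervals. The log2 change was 3.48 into early spermatocytes (edgeR adjusted p = 1.21e-23) and -3.73 into round spermatids (adjusted p = 2.43e-27), in 3 of 3 libraries each. Between early and late spermatocytes it was 0.33 (adjusted p = 0.000621) with TMM and -0.25 on library totals, so no direction is given there. Levels by step were 21.3, 25.2 and 18.2 CPM at step 2, 486, 424 and 397 CPM at step 3, 667, 597 and 643 CPM at step 4 and 55.6, 47.7 and 43.4 CPM at step 6.

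The somatic paralog Psma7 ran the other way. It fell from 523, 452 and 588 CPM in spermatogonia to 48.0, 53.4 and 56.0 CPM in early spermatocytes, a log2 change of -3.19 (edgeR adjusted p = 1.56e-23), lower in 3 of 3 libraries. As a part of Psma7 and Psma8 UMIs together, Psma8 went from 5.50%, 6.28% and 5.45% in spermatogonia to 88.4%, 85.2% and 84.5% in early and 87.5%, 87.3% and 88.4% in late spermatocytes. The switch lay between step 2, at 19.005 ± 3.92%, and step 3, at 92.0 ± 0.963% (SD, n = 3 libraries). In spermatids both transcripts were low and the share was 56.7%, 61.4% and 56.3% in round and 47.5%, 47.3% and 39.0% in elongating cells.

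**Figure D4:**
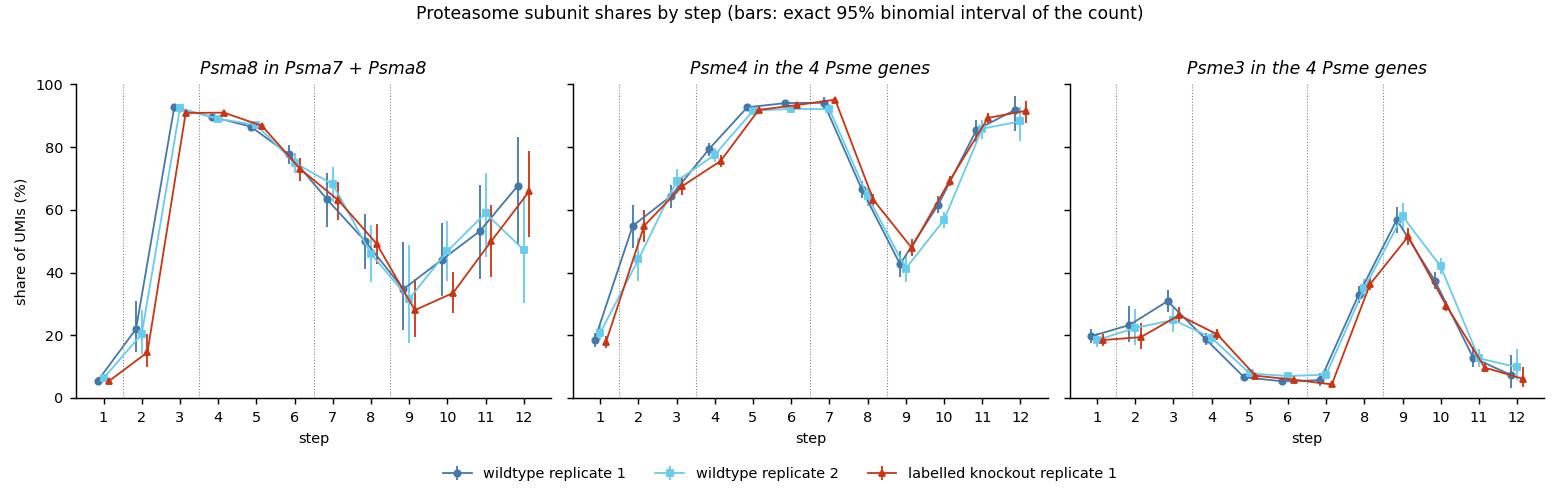
Share of UMIs (vertical axis, percent) of Psma8 among Psma7 and Psma8, and of Psme4 and Psme3 among the 4 Psme genes, over the 12 steps (horizontal axis), with exact 95% binomial intervals that cover counting error only. The Psma8 share jumps between steps 2 and 3, and the Psme4 share dips at step 9, where Psme3 reaches 55.4%.

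Most other core subunits of the proteasome fell where Psma8 rose. Of the 17 listed, 16 could be tested, and into early spermatocytes 1 rose and 12 fell by edgeR, with a median log2 change of -0.70. Of all genes 30.8% rose and 27.8% fell there. Psmb1 and Psmb2, β subunits, fell, with log2 changes of -1.19 and -1.08 (adjusted p = 4.92e-15 and 1.20e-13). Psma6 rose by 2.54 into round and 1.89 into elongating spermatids (adjusted p = 7.12e-27 and 6.05e-23). Of the 20 subunits of the 19S cap, 4 rose and 10 fell into early spermatocytes, 12 rose and 3 fell into late spermatocytes (6 and 10 on library totals), and 2 rose and 15 fell into round spermatids. Into late spermatocytes 41.5% of all genes rose and 36.2% fell with TMM, and into round spermatids 38.7% and 42.7%.

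Transcripts of the proteins that replace the histones were highest in elongating spermatids. All 5 genes of the transition proteins and protamines rose into round spermatids, with a median log2 change of 4.51, and again into elongating spermatids, with a median of 3.86, both by edgeR and also on library totals. Prm1 reached 103928, 104844 and 92781 CPM in elongating spermatids. Of 9 listed histone variants, which include genes of the general variant H3.3 beside testis variants, 6 rose and 3 fell into round spermatids. Of all genes 38.7% rose and 42.7% fell there. H1fnt, a linker histone of spermatids, rose by 5.48 (adjusted p = 6.04e-32) and Hils1, another, by 3.89 (adjusted p = 3.30e-25), while H3f3b, one of the H3.3 genes, fell by 3.11 into elongating spermatids (adjusted p = 1.53e-26). Of 13 further factors of the exchange, 4 rose and 8 fell into round spermatids, beside the same shares of all genes. Cdyl, a chromodomain protein, rose by 5.95 (adjusted p = 1.29e-31) and Tssk6, a kinase of spermatids, by 3.89 (adjusted p = 1.07e-16), whereas Parp1, a poly(ADP-ribose) polymerase, fell by 1.18 (adjusted p = 4.85e-14). By steps, Tnp2, which encodes a transition protein, was over all libraries at 392 CPM at step 6, 608 CPM at step 7 and 12910 CPM at step 8. Chd5 stood at 56.2, 78.4 and 104 CPM at step 6 and 191, 221 and 253 CPM at step 7.

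The courses of the members over the 12 steps can be set beside each other by the correlation of log2(CPM + 1), given here as a description over steps of the same libraries and with the lowest and the highest value of the 3 libraries. Brdt and Psma8 ran most alike, with Pearson's r of 0.893 to 0.906, followed by Brdt and Epc1 (0.845 to 0.875) and Phf7 and Kat8 (0.835 to 0.877). Chd5 ran against Psma8 (-0.790 to -0.764) and Rnf8 (-0.717 to -0.697). Among 10392 genes, the courses closest to that of Brdt were those of Ttc26 and Sugp2 (lowest r of 0.979 and 0.971), to Chd5 Dpysl3 and Fam3b (0.979 and 0.974), to Rnf8 Sarnp and Smarcd1 (0.991 and 0.990) and to Phf7 Gm20512 and Ybx3 (0.941 and 0.937). They were Ropn1l and Lypd9 for Kat8 (0.967 and 0.953), Grpel1 and Cct3 for Epc1 (0.971 each), Mrpl51 and Ppm1b for Psme4 (0.926 and 0.903) and Tacc1 and Uggt2 for Psma8 (0.972 and 0.971). Ybx3 is among the markers that named the late spermatocytes.

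In the library labelled knockout each member had the same peak class as in wildtype replicate 1, and its levels in the germ cell classes differed from both wildtype libraries by less than 2-fold. A gene passed the size rule when its log2 ratio of CPM + 1 was at least 1 in size and of the same sign against both wildtype libraries, at least 2 times the ratio between these, and 1 library reached 20 CPM. Between 8 members in spermatogonia and spermatocytes and 4 in elongating spermatids reached this level, and none passed in any germ cell class. Of all genes, 0.366% passed in either direction in spermatogonia, 0.258% in early and 0.706% in late spermatocytes, 1.05% in round and 1.32% in elongating spermatids. None of the partner genes passed either, of which 104 in spermatogonia and 31 in elongating spermatids reached the level. With 1 library of this genotype the values that follow have no replicate check.

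Chd5 was higher in the library labelled knockout than in both wildtype libraries in early spermatocytes (40.3 against 24.2 and 27.8 CPM), round spermatids (289 against 225 and 252 CPM) and elongating spermatids (189.9 against 122 and 142 CPM). The log2 ratios to wildtype replicate 1 and replicate 2 were 0.71 and 0.52, 0.36 and 0.20, and 0.63 and 0.41. The counting intervals did not overlap, but those of the wildtype libraries were apart from each other too in both spermatid classes. In spermatogonia the ratios were 0.08 and -0.18. In late spermatocytes 28.2 CPM lay between 18.8 and 29.1 CPM, with ratios of 0.56 and -0.04. At step 4 they were 1.07 and 0.95, at levels of 19.3 against 8.71 and 9.54 CPM, which lie below the level in myoid cells. Tex10 lies on the same chromosome, at 48430858 to 48473459, far from Chd5 at 152338651 to 152390194. Whether position has a part in these levels was not tested.

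Psme4 was above both wildtype libraries in the library labelled knockout in each germ cell class but spermatogonia. In early spermatocytes 148 CPM stood against 129 and 115 CPM (0.20 and 0.37), where its interval was not above both wildtype intervals. The ratios were 0.27 and 0.60 at step 2, 0.18 and 0.28 at step 3 and -0.08 and 0.09 at step 4. Elongating spermatids held 130.02 CPM against 81.7 and 79.9 CPM, with log2 ratios of 0.66 and 0.70, while the intervals of the wildtype libraries overlapped. In round spermatids 163 CPM stood against 127 and 115 CPM (0.35 and 0.50), and in spermatogonia 80.7 CPM against 78.5 and 84.6 CPM (0.04 and -0.07). The interval of the library labelled knockout lay above both wildtype intervals at each of steps 6 to 12, with the ratios largest at steps 10 (0.61 and 0.75) and 11 (0.82 and 0.66). The 5th and 95th percentiles over all genes at 20 CPM or more were log2 ratios to the wildtype libraries of -0.27 and 0.42 in elongating spermatids, where Psme4 had 0.68 and Chd5 0.52. At a threshold of 1.5-fold Psme4 was the member that passed in this class. With cells thinned to 2000 UMIs its value was 0.59, and on TMM-scaled CPM 0.58, against 0.47 and 0.41 for Chd5. The transition protein and protamine share (24.8% against 26.3% and 26.7%) and the depth per cell also differed between these libraries, and their part in the result was not tested.

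Phf7 was above both wildtype libraries in elongating spermatids by 0.26 and 0.35, and Rnf8 in early spermatocytes by 0.27 and 0.29. The Phf7 interval lay above both wildtype intervals at step 2 and at each of steps 6 to 11. Its ratios were largest at step 11 (0.61 and 0.53). There its ratio to the wildtype libraries was 0.57, with the 95th percentile over all genes at 20 CPM or more at 0.49. The Rnf8 interval lay above both at step 2 (0.55 and 0.48). Brdt (-0.001 and -0.13), Epc1 (-0.05 and 0.16), Kat8 (0.06 and 0.25) and Psma8 (-0.04 and -0.08) had smaller ratios in elongating spermatids. The Psma8 share of Psma7 and Psma8 in late spermatocytes was 88.4% in the library labelled knockout and 87.5% and 87.3% in the wildtype libraries. In myoid cells Psma8 was at 22.6 against 10.6 and 10.7 CPM (ratios of 1.03 and 1.01), the one member to pass the size rule, where 2.33% of all genes passed in either direction. It did not pass with a pseudocount of 5 CPM or with cells thinned to 2000 UMIs.

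**Figure D5:**
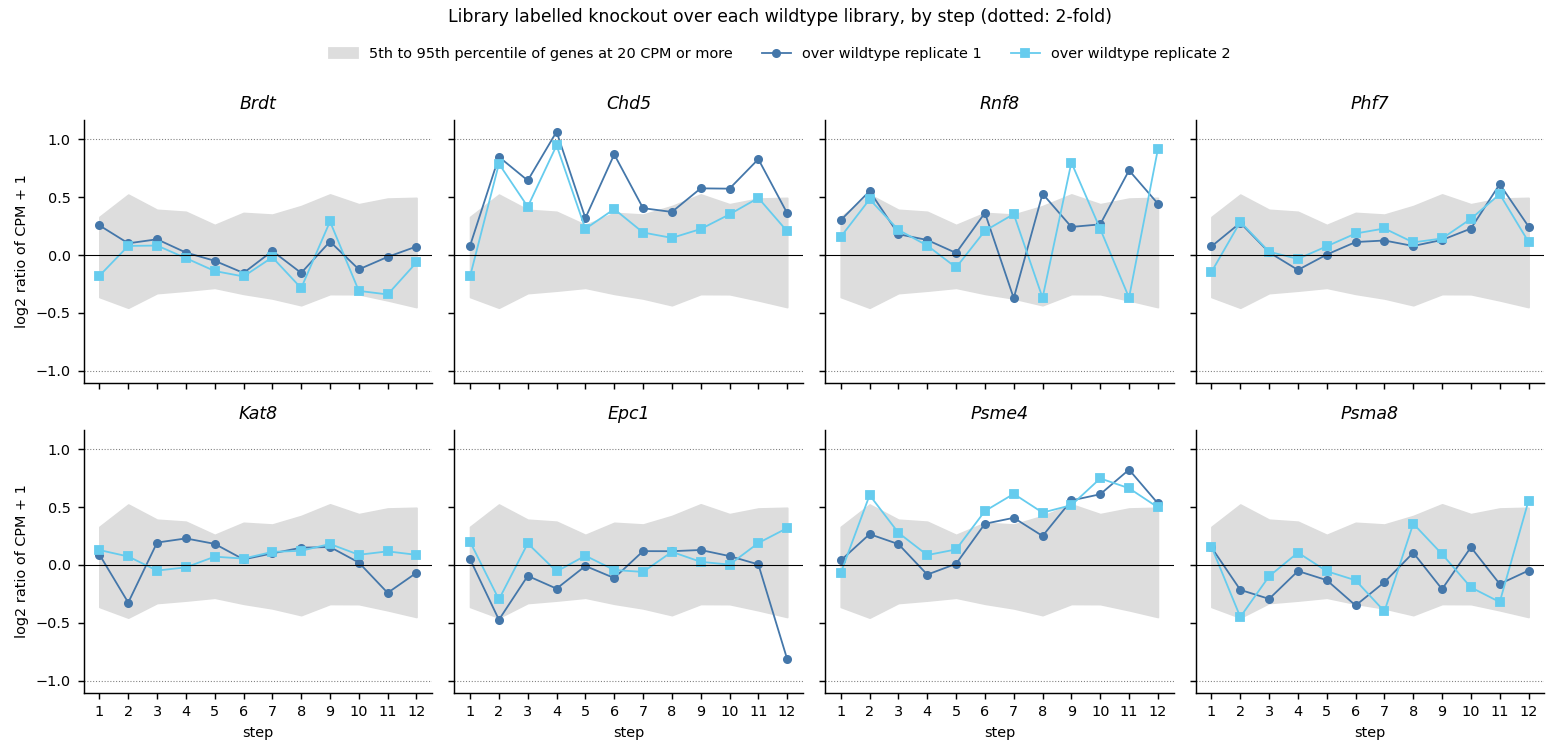
Log2 ratio of CPM + 1 of the library labelled knockout over wildtype replicate 1 and over wildtype replicate 2 (vertical axis) at each of the 12 steps (horizontal axis), with the grey band from the 5th to the 95th percentile of all genes at 20 CPM or more. Chd5 is above 0 against both libraries from step 2 on, Psme4 at steps 2 and 3 and from step 5 on, and ratios of Rnf8 scatter where its level is near 0.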

How the data were processed

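Raw UMI counts for each gene in each cell barcode were deposited, made with Cell Ranger 4.0.0 per the file headers. The submitters' processing notes also name Seurat 4.0.5 and the build mm10. Barcodes with at least 1000 UMIs, 500 genes and at most 10% mitochondrial UMIs were kept. Scrublet's own threshold marked under 0.5% of barcodes, so the top 8% of scores in each library were left out instead. Cells were clustered over 2000 variable genes, 30 components and 15 neighbours (scanpy 1.11.5, leidenalg 0.10.2, resolution 1), without the members and their partner genes (120 in all). Clusters were named from markers of 12 cell types with at least 3 detected markers, so the class names are rebuilt here and may differ from those of the study. Clusters whose median UMI total was under 3 times the lowest deposited total stayed out, a limit set after the data had been seen. A diffusion pseudotime folded elongating spermatids back onto early cells, so 12 germ cell clusters were ordered by a minimum spanning tree of their profiles over 10732 genes. These steps replace the planned pseudotime bins. UMIs were summed per library and class (CPM: per 1e+06 UMIs of the class). Stage differences were tested with edgeR 4.0.16 (15 sums, library as a block, TMM, Benjamini-Hochberg over 18437 genes); DESeq2 1.42.0 was an alternative, as were library totals, no library block, other filters on genes and cells, doublets kept, a finer clustering, thinned cells and leaving out each library. The test was checked on simulated data in which all classes had the same mean profile apart from planted changes. That check does not cover the shift in RNA composition between the real classes. Replicate numbers 1 in both groups are names and pair nothing. The 3 libraries, of which 2 are single mice and 1 a pool, are the replicates of a stage difference. P-values rest on the spread left after the library block has taken out each library's own level. All classes share 1 estimate of this spread for a gene, so it is not measured for a single transition. Intervals cover counting error only.

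The 8 members and the 11 partner lists were chosen with earlier results of these data known. Named were the members, Tex10, the 3 genes of each partner list with the largest CPM change between classes, Psma7, the Psme genes, the 2 genes with the most similar course for each member, and any member or partner passing the size rule. One partner gene that this rule names is not reported here. Gene positions come from GENCODE M21 on GRCm38 by Ensembl identifier and promoters from RefSeq on GRCm38.p6.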

Additional observations from a re-analysis of the deposited data

Results flagged for a closer look

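With TMM, the change of Chd5 between spermatogonia and early spermatocytes differed in sign between libraries. Its log2 change was 0.11 (0.106) in the library labelled knockout and -0.48 and -0.61 in the wildtype libraries. In CPM it was level in the library labelled knockout, at 40.2 and 40.3. Rnf8 between round and elongating spermatids also differed in sign with TMM, with 0.33 (0.328) against -0.38 and -0.03, at levels of at most 2.23 CPM. In CPM Rnf8 fell in all 3 libraries, from 2.04, 2.23 and 2.19 to 0.604, 0.823 and 1.10. The signs thus depend on the scaling. Neither difference between the genotypes was tested, since 1 library carries the knockout label. The values of Chd5 in these classes did not exceed those of myoid cells beyond the counting intervals.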

How the results depend on the processing

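No paired analysis was possible because 1 library carries the knockout label, and the replicate number it shares with a wildtype library is only a name. The stage test already had the library as a block. Of the changes of single members between classes under each alternative, 328 kept direction and call, 18 gained a call, 16 lost it and 22 turned. On library totals without TMM, members called lower were 1 (early over spermatogonia), 4 (late over early) and 8 (elongating over round), with 0 called higher at the last. There the log2 changes turned for Chd5 (-0.30) and Psma8 (-0.25) into late spermatocytes, for Kat8 (-0.25) and Psme4 (-0.29) into round spermatids, and for Chd5 (-0.77), Rnf8 (-1.28), Phf7 (-0.48), Kat8 (-0.86) and Psme4 (-0.48) into elongating spermatids. DESeq2 called 1 member lower into early spermatocytes, and 3 higher and 3 lower into round spermatids, and turned Chd5 (-0.20) and Psma8 (-0.15) into late spermatocytes, Phf7 into round (0.00749) and Psma8 into elongating spermatids (0.0558). Thinned cells left 3 members higher into late spermatocytes, 3 lower into round and 1 lower into elongating spermatids, turned Epc1 (-0.16, late over early) and Psma8 (0.47, elongating over round), and gave a Psme4 share difference of 66.2 points. Doublets kept and low-UMI clusters named too each called 1 member lower into early spermatocytes, turned Kat8 into round spermatids (-0.00675 and -0.0484), and turned Psma8 into late spermatocytes (-0.77, doublets kept) and Rnf8 into elongating spermatids (-0.0177, low-UMI clusters). Leiden resolution 2 called 1 lower into late spermatocytes and 2 higher into round spermatids. No library block and no low-count filter each called 1 lower into late spermatocytes, and Rnf8 into elongating spermatids was -0.0274 without the filter. Leaving out 1 library, members called lower ranged from 0 to 1 into early and from 1 to 2 into late spermatocytes, Psme4 into round spermatids from -0.0112 to 0.14, and Rnf8 into elongating spermatids from -0.19 to 0.19, the lowest without the library labelled knockout in both. The size rule at 1.5-fold passed 1 member in elongating spermatids. In myoid cells it passed 0 with a pseudocount of 5 CPM, with at least 2000 UMIs per cell, with doublets kept and with thinned cells. The cause was not tested for any of these. Counts of members called under the alternatives stand without the share of all genes called, so they describe the members only. Depth limits Rnf8 in spermatids, where levels are at most 2.23 CPM.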
